A study of Mus musculus with 8 samples.

Results

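The genes of the cytosolic ribosomal proteins were followed through RNA-Seq of the pancreas of 8 male mice. Members were all gene symbols of the deposited values that follow the naming of 40S (Rps and Rpsa) and 60S (Rpl and Rplp) ribosomal proteins, without symbols ending in -ps and without the Rps6k kinases. This gave 81 members of 15047 genes, 33 of the 40S and 48 of the 60S subunit. The naming rule leaves out Fau and Rack1, among others, which encode ribosome components under other symbols, and 18 further symbols that start with Rpl or Rps, among them Rps27rt, Rpl37rt and Rpl36al.

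The LFD group was 3 wild-type C57BL/6 mice on a low-fat diet, the HFD group 3 wild-type C57BL/6 mice on a high-fat diet, in which 60% of the calories came from fat, and the ob/ob group 2 C57BL/6J ob/ob mice. Ob/ob mice lack functional leptin throughout the body and were kept on standard chow, so the ob/ob and LFD groups differ in diet as well as in genotype. Mice were divided into the groups at 4 weeks of age, the ob/ob mice included. The low-fat and high-fat diets began then and lasted 10 weeks. The labels name the tissue as pancreas only, while the study describes all 8 mice as carrying orthotopic transplants of mT organoids, which were grown from pancreatic tumours of genetically engineered mice with Pdx1-Cre. The libraries may thus hold host pancreas and graft in unknown proportions. Values are rlog values, log2 counts corrected for library size and shrunken for genes with few reads, and a difference of 1 is a 2-fold change. The depth of the libraries is unknown.

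A ribosome holds 1 copy of nearly every ribosomal protein, and their mRNAs are among the most abundant of any cell. Most of these mRNAs begin with a 5′ terminal oligopyrimidine (TOP) tract, a C followed by a run of C and T, through which mTORC1 and Larp1 control their translation. Myc and RNA polymerase I set the supply of rRNA that the proteins bind. In the pancreas, acinar cells make digestive enzymes at a very high rate on ribosomes of the rough endoplasmic reticulum.

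The annotated starts were searched for this tract. Promoter sequences of RefSeq (GRCm38.p6) matched 60 of the 81 members. The windows below, of 30 bases on the strand of the gene, were chosen among the members named in the comparisons that follow to show tracts of different length, and capitals mark the longest run of C and T that opens with a C within 10 bases of the annotated start. Rps6 (chr4:86857349-86857378, minus strand), Rpl28 (chr7:4792953-4792982, plus strand), Rpl35 (chr2:39005119-39005148, minus strand) and Rps12 (chr10:23787182-23787211, minus strand) hold long tracts, Rpl22l1 (chr3:28805501-28805530, plus strand) one of 8 bases, while Rpl41 (chr10:128549152-128549181, minus strand) has a run of 3 bases and Rpl11 (chr4:136053384-136053413, minus strand) one of 2 bases.
Rps6: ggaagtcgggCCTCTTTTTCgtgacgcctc
Rpl28: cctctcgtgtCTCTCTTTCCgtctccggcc
Rpl35: gtcggccccgCCCTTTCCTCTTTCTCTCga
Rps12: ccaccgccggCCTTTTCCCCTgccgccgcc
Rpl22l1: caagcccgttCTCTTCCCacggctgcagct
Rpl41: cacgggccggCTCggaagtgacgacaccga
Rpl11: gcctcctgacCCataaggccacggggccgg

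A run of at least 5 bases was present in 36 of 60 members (60.0%) and in 34.4% of the 27025 genes with a promoter sequence. The other 24 members had a shorter run, as Rpl5, Rplp0 and Rpsa did. A run of at least 8 bases was present in 24 of 60 members and in 9.43% of all genes. Both lengths were set after the sequences were seen. A short run says only that these letters are not next to the annotated start, which need not be the start used in this tissue.

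Most members were abundant. The mean rlog in LFD mice ran from 5.09 for Rps27 to 14.48 for Rpsa, the laminin receptor homologue of the 40S subunit. Per kilobase of the principal transcript, the highest log2 level in LFD mice was that of Rpl41 (15.3), which encodes a very short peptide of the 60S subunit. The lowest were those of Rps4l (6.05), Rps27 (6.63), Rpl27 (7.47), Rpl12 (8.09), Rpl5 (9.27) and Rps12 (9.63). Nearly all members have near-identical copies elsewhere in the genome. In Gencode M21, 76 of 81 members have at least 1 annotated copy that matches at least 80% of the coding sequence at 95% identity or more, 572 copies in all, with a median of 5 and up to 57 for Rpl21. Rps12 has 22, Rpl27 has 7 and Rpl12 has 6 such copies, and none of these copies is in the analysed table. Salmon divides reads among such copies by probability, so the levels of single members are uncertain. The values of Rpl23, Rpl27, Rpl34, Rpl37 and Rps6 were identical in all 8 mice to those of 1 or 2 other symbols.

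Before any comparison of groups, the members moved together from mouse to mouse. The median over the 81 members of the difference from the LFD mean of the gene was -0.21, -0.08 and 0.29 in LFD replicates 1, 2 and 3. It was 0.26, -0.44 and -1.03 in HFD replicates 1, 2 and 3, and -0.20 and -0.84 in ob/ob replicates 1 and 2. HFD replicate 1 thus lay at the top of the LFD range, ob/ob replicate 1 within it, and the other 3 obese mice below it, whereas the same median over all genes stayed between -0.03 and 0.07. Abundant genes shared part of the shift: over the 1002 genes with a mean rlog of 10 or more, 74 of them members, the median was -0.31 and -0.38 in HFD replicates 2 and 3 and -0.41 in ob/ob replicate 2, and 0.03 in HFD replicate 1. HFD replicate 3 had the lowest value of the 8 mice for 73 of 81 members, and ob/ob replicate 2 for 5. Ranks over all 8 mice were not counted for all genes. Among the 3 HFD mice, HFD replicate 3 was lowest for 80 of 81 members, 5414 of all 15047 genes and 534 of the 1002 abundant genes.

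**Figure D1:**
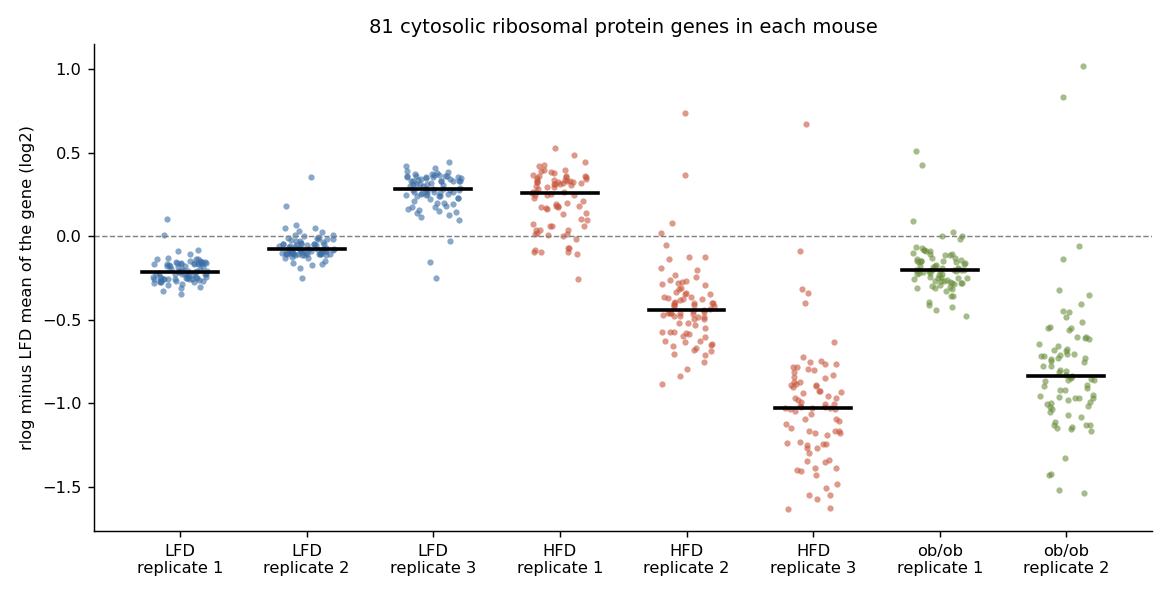
Each point is 1 of 81 ribosomal protein genes, drawn as its rlog value minus its mean in the 3 LFD mice (log2), by mouse, and black bars are medians. The points of HFD replicates 2 and 3 and ob/ob replicate 2 lie almost all below 0 (medians -0.44, -1.03 and -0.84), while those of HFD replicate 1 have a median of 0.26.

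The order of the mice was shared by nearly all members. HFD replicate 3 was below HFD replicate 2, and that below HFD replicate 1, in 77 of 81 members, an order found in 26.3% of all genes. The 4 exceptions were Rpl12, Rpl27, Rps27 and Rps4l, which are also the 4 members with the lowest level per length. HFD replicate 3 and ob/ob replicate 2 were both below every LFD mouse in 77 of 81 members and in 26.8% of all genes. HFD replicate 1 was above LFD replicates 1 and 2 in 68 members, a pattern that was not counted over all genes. The members follow each other and are not independent, so these counts describe the mice and not separate events.

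This spread between mice was the error of each comparison. The SD between mice of a group had a median over members of 0.26 in LFD (n = 3), 0.62 in HFD (n = 3) and 0.46 in ob/ob (n = 2). The residual SD of the fit had a median of 0.48 for members and 0.34 for all genes.

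Libraries with low ribosomal protein levels also stood apart in acinar markers. The list of 26 acinar genes, among them Cpa1, Prss2, Pnlip and Cela2a, had mean rlog values of 17.6, 17.9 and 18.1 in the LFD mice. It had 18.0, 15.8 and 13.9 in HFD replicates 1, 2 and 3, and 17.2 and 14.3 in ob/ob replicates 1 and 2. The acinar list was therefore lowest in the same 3 obese mice in which the ribosomal protein genes were lowest, and all 26 genes had lower means in HFD and in ob/ob than in LFD. Fibroblast markers (15 genes, such as Col1a1 and Postn) went the other way, with mean rlog values of 9.0 to 9.45 in LFD, 9.87 to 10.8 in HFD and 10.3 to 11.3 in ob/ob. Leukocyte markers (17 genes, such as Ptprc and Tyrobp) had mean rlog values of 7.23 to 8.16 in LFD, 8.16 to 8.87 in HFD and 8.46 to 8.96 in ob/ob. In every mouse the acinar list stayed far above the median rlog of all genes, which was 7.09 to 7.25. In whole tissue, fewer cells of a type and less RNA in each cell cannot be told apart.

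The direction of the members depended on the scale. On the rlog scale, the median over members was 12.5, 12.6 and 12.9 in LFD, 12.9, 12.2 and 11.6 in HFD and 12.5 and 11.8 in ob/ob. As a share of the summed linear values (2 to the power of rlog) of all genes, the 81 members made up 1.16%, 1.14% and 1.13% in LFD, 1.25%, 2.48% and 3.0% in HFD and 1.51% and 3.22% in ob/ob. The 3 mice with the lowest rlog level had the highest share, since the sum itself had fallen from a log2 value of 25.5 to 26.01 in LFD to 24.1, 23.2 and 23.3 in those mice. When each mouse was scaled to this sum, the median member difference turned to 0.91 in HFD against LFD and 0.99 in ob/ob against LFD, below the shift of 1.36 and 1.53 in the median of all genes. Quantile normalization gave medians of -0.18 and -0.22. On each of these scales the members lay under the median gene, and all differences below are on the rlog scale as deposited.

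**Figure D2:**
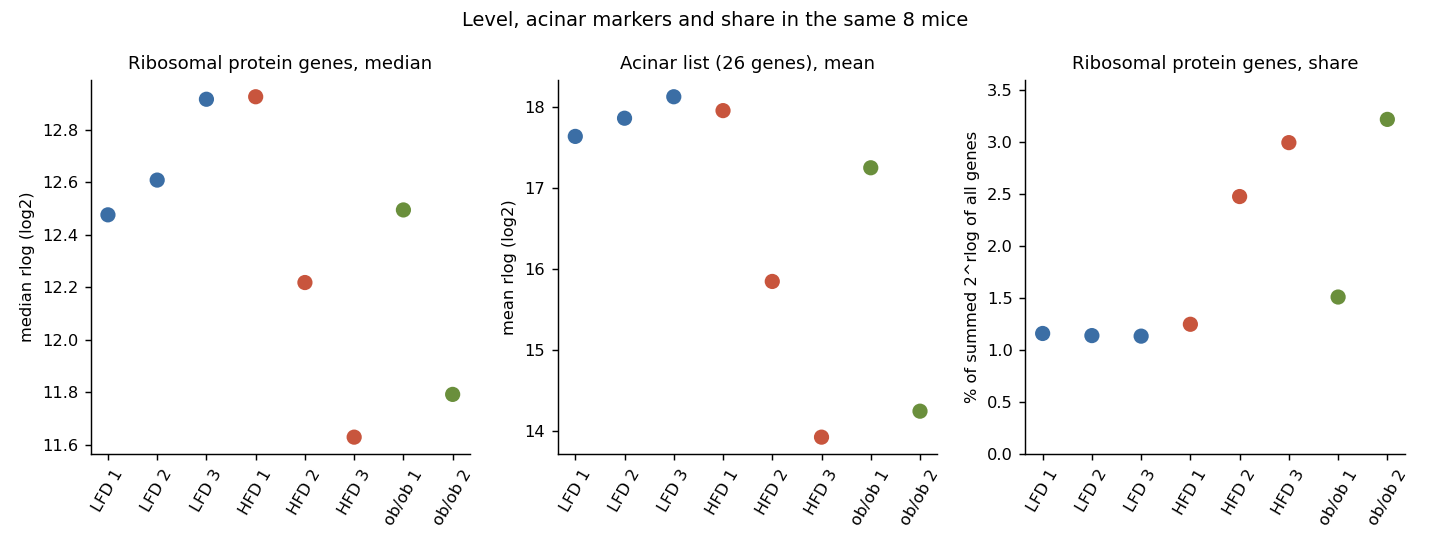
The left panel shows the median rlog of the 81 ribosomal protein genes, the middle panel the mean rlog of 26 acinar genes, and the right panel the share of the ribosomal protein genes in the summed linear values (%), with 1 point for each mouse. HFD replicates 2 and 3 and ob/ob replicate 2 are low in the left and middle panels and high in the right panel, with shares of 2.48%, 3.0% and 3.22%.

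HFD was compared with LFD to ask what diet-induced obesity changes in the tissue. The median member difference was -0.42, against 0.03 for all genes. In HFD, 79 of 81 members had a lower mean, as did 7168 of all 15047 genes. Among genes with a mean rlog of 10 or more, the median was -0.44 for the 74 members and -0.25 for all 1002 genes, of which 673 had a lower mean. Rpl41 (-0.76 ± 0.47, SE), Rps27l (-0.72 ± 0.48), Rpl22l1 (-0.68 ± 0.50) and Rpl35 (-0.68 ± 0.45) had the largest differences downward, and Rps4l (0.48 ± 0.28) and Rps27 (0.06 ± 0.26) were the only members with a higher mean. With the mice of each group so far apart, 1 member was lower at an unadjusted p under 0.05, where 8.35% of all genes were, and 0 members were higher, where 11.5% of all genes were. That member was Rpl28 of the 60S subunit, named here after its values were seen, with values of 11.25, 11.36 and 11.52 in LFD and 11.12, 10.86 and 10.36 in HFD. It was also the only member whose mice did not overlap between HFD and LFD, where 12.3% of all genes did not overlap downward and 12.9% upward. Its difference of -0.60 ± 0.25 had an adjusted p of 0.242 in limma, and 0% of all genes had an adjusted p under 0.05.

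The HFD result depended on single mice, and HFD replicate 1 stood against the downward shift. Without HFD replicate 1, the median member difference was -0.72. Then 52 of 81 members were lower at an unadjusted p under 0.05, 64.2% against 16.4% of all genes. Abundant genes were not counted apart in this fit, so whether the contrast holds against genes of like level was not tested. The members follow each other, so the 52 are not separate events. By adjusted p, 1 member passed, Rpl35 at 0.0413 in limma, where 18.7% of all genes passed in either direction. The call of Rpl28 in HFD ended without the trend, under quantile normalization and without any one of the LFD mice, HFD replicate 2 or HFD replicate 3. Under quantile normalization and without LFD replicate 1, the count of lower members was still 1. Leaving out HFD replicate 3 brought the median to -0.11. With the mean of the acinar list as a covariate, the median was 0.16 with 0 members lower.

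Ob/ob mice were compared with LFD mice as the genetic form of obesity. The median member difference was -0.50, against 0.04 for all genes. Again 79 of 81 members had a lower mean, as did 7059 of all 15047 genes. Among genes with a mean rlog of 10 or more, the median was -0.53 for the 74 members and -0.30 for all 1002 genes, of which 671 had a lower mean. In 30 members the groups did not overlap, with both ob/ob mice below all LFD mice, where 21.8% of all genes were. At a mean rlog of 10 or more, this held for 28 of the 74 members and 449 of all 1002 genes, a smaller share for the members. At an unadjusted p under 0.05, 2 members were lower, where 7.18% of all genes were, and 1 was higher, where 11.6% were. Rpl28 was 11.02 and 10.36 in the ob/ob mice, which is -0.68 ± 0.28 from LFD (adjusted p = 0.251 in limma). Rps12, a 40S protein, was 8.50, 8.96 and 8.36 in LFD and 8.13 and 7.89 in ob/ob, a difference of -0.60 ± 0.25. Its HFD mice, at 8.75, 8.48 and 8.21, overlapped with the LFD mice. The member that was higher was Rps4l, with a difference of 0.76 ± 0.31, and both its ob/ob mice and those of Rps27 lay above all LFD mice, where 24.1% of all genes did. By adjusted p, 0% of all genes passed.

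The other large differences in ob/ob mice were those of Rps27l (-0.97 ± 0.54), Rpl41 (-0.93 ± 0.53), Rpl22l1 (-0.89 ± 0.56) and Rpl32 (-0.87 ± 0.53). HFD and ob/ob were both set against the same 3 LFD mice, so the likeness of the lists is not independent. The median in ob/ob rested on ob/ob replicate 2: it was -0.20 without that mouse and -0.84 without ob/ob replicate 1. With the acinar list as a covariate it was 0.12. The calls in ob/ob were as unsteady: without LFD replicate 1, without ob/ob replicate 2, under quantile normalization and with the acinar covariate, 0 members were lower and 0 higher, and 0 were lower without the trend and without LFD replicate 2 or HFD replicate 2. Without ob/ob replicate 1, 6 members were lower, and 5 without HFD replicate 1.

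**Figure D3:**
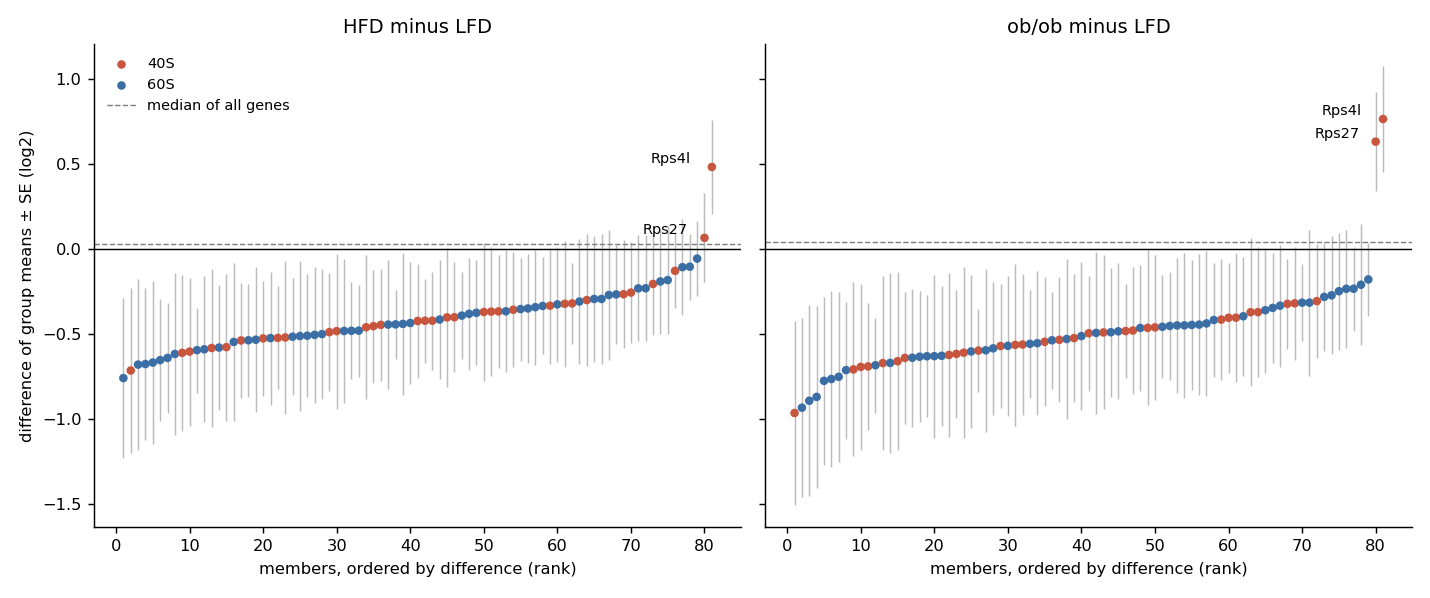
Members are ordered by their difference from LFD (log2, bars are ± SE from limma) in HFD (left) and ob/ob (right), with 40S proteins in red and 60S proteins in blue. In both panels 79 of 81 members lie below 0 and Rps4l and Rps27 lie above it, and the dashed lines give the median of all genes (0.03 and 0.04). Scaled to the summed value of all genes, the members' medians turn to 0.91 and 0.99.

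Ob/ob and HFD mice were set against each other to separate the genetic from the dietary model. The median member difference was -0.09, against 0.01 for all genes. In ob/ob, 68 members had a lower and 13 a higher mean, beside 7263 of all 15047 genes with a lower one. Among genes with a mean rlog of 10 or more, 64 of 74 members and 575 of all 1002 genes had a lower mean. At an unadjusted p under 0.05, 0 members passed, where 3.91% of all genes did. By adjusted p, 0% of all genes passed. The largest differences were -0.47 for Rps12 and -0.26 for Rplp1 downward, and 0.57 for Rps27 and 0.28 for Rps4l upward. The median turned to 0.25 without HFD replicate 1 and to 0.24 without ob/ob replicate 2.

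Both subunits had medians close to each other. The median difference was -0.42 for 40S and -0.44 for 60S members in HFD, and -0.53 and -0.49 in ob/ob. In HFD replicate 3, the mouse with the lowest levels, the median difference from the LFD mean was -1.03 for 40S and -1.02 for 60S members.

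The stalk of the 60S subunit, which recruits the GTPases of translation, is built from Rplp0, Rplp1 and Rplp2. Rplp0 was 14.27, 14.48 and 14.55 in LFD, 14.36, 13.94 and 13.39 in HFD and 14.11 and 13.83 in ob/ob. Rplp1 was 13.13, 13.38 and 13.92 in LFD, 13.78, 13.02 and 12.09 in HFD and 13.05 and 12.35 in ob/ob. Rplp2 was 11.32, 11.49 and 11.64 in LFD, 11.39, 11.24 and 10.64 in HFD and 11.26 and 10.63 in ob/ob. For all 3 stalk genes the ob/ob mice lay below every LFD mouse, as in 21.8% of all genes, although Rplp0 turned to a difference of 0.12 in ob/ob after quantile normalization, and HFD replicate 1 lay inside the LFD range.

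Rpl5 and Rpl11 bind the 5S rRNA and, outside the ribosome, Mdm2, the ubiquitin ligase of p53. Rpl11 was 12.50, 12.67 and 13.14 in LFD, 13.06, 12.09 and 11.38 in HFD and 12.56 and 11.71 in ob/ob, which gave differences of -0.59 ± 0.43 and -0.63 ± 0.48. Rpl5 was 10.21, 10.19 and 10.50 in LFD, 10.63, 9.75 and 9.40 in HFD and 10.30 and 9.75 in ob/ob, with differences of -0.38 ± 0.31 and -0.27 ± 0.35. In both genes HFD replicate 1 and ob/ob replicate 1 stood at or above the lowest LFD mouse and the other 3 obese mice stood below all LFD mice.

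Of the 40S proteins with known roles, Rps6 is the substrate of the S6 kinases downstream of mTORC1. It was 13.78, 13.85 and 14.16 in LFD, 14.18, 13.25 and 12.64 in HFD and 13.80 and 12.82 in ob/ob. Rps6 thus varied more within each obese group than among the LFD mice, and its differences of -0.58 ± 0.43 and -0.62 ± 0.48 did not pass the test. Rps19, mutated in Diamond-Blackfan anaemia, differed by -0.49 ± 0.35 in HFD and -0.64 ± 0.39 in ob/ob. Rpsa differed by -0.52 ± 0.45 and -0.61 ± 0.50. Rps27a, made as a fusion with ubiquitin, differed by -0.33 ± 0.34 and -0.37 ± 0.38.

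The members that departed from the common pattern were those with low values. Rps4l was 5.56, 5.89 and 5.68 in LFD, 5.75, 6.45 and 6.38 in HFD and 6.22 and 6.73 in ob/ob, so that 4 of 5 obese mice lay above all LFD mice. Gencode M21 annotates Rps4l (chr6:148354656-148355598, plus strand) as a transcribed processed pseudogene, so it need not make a ribosomal protein. Rps27 (chr3:90212522-90213651, minus strand) was 5.10, 4.92 and 5.25 in LFD, 5.01, 5.46 and 5.0 in HFD and 5.51 and 5.93 in ob/ob. A copy with a coding sequence of 100% identity, Rps27rt, carried most of the signal, with 11.89, 12.13 and 12.47 in LFD, 12.46, 12.13 and 11.47 in HFD and 12.05 and 11.64 in ob/ob. The 2 symbols summed on the linear scale differed by -0.14 in HFD and -0.31 in ob/ob, so the sign of Rps27 turned once its copy was counted with it.

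Some ribosomal protein genes have paralogs. Rpl22l1 and Rpl22 encode related 60S proteins, Rps27l and Rps27 a pair in the 40S subunit, and Rpl7l1 and Rps4l are related to Rpl7 and Rps4x. The paralog minus its parent was tested in the 5 obese against the 3 LFD mice with an exact, two-sided permutation test, which was chosen after the values had been seen and cannot go below p = 0.0357. Rpl22l1 was 10.53, 10.46 and 11.12 in LFD, 11.05, 9.95 and 9.07 in HFD and 10.43 and 9.19 in ob/ob. Rpl22 was 11.19, 11.33 and 11.79 in LFD, 11.80, 11.38 and 10.80 in HFD and 11.32 and 10.98 in ob/ob. Rpl22l1 minus Rpl22 was therefore -0.66, -0.87 and -0.66 in LFD, -0.75, -1.43 and -1.73 in HFD and -0.89 and -1.79 in ob/ob. The difference of -0.59 between obese and LFD mice had an exact permutation p of 0.0714 (0.190 adjusted over the 4 pairs), with 4 of 5 obese mice below all LFD mice. Neither it nor the other 3 pairs passed. Rps27l minus Rps27 differed by -1.11 (exact p = 0.143) and Rps4l minus Rps4x by 1.02 (exact p = 0.143), and both include a low symbol described above. Rpl7l1 minus Rpl7 differed by -0.04 (exact p = 0.821).

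**Figure D4:**
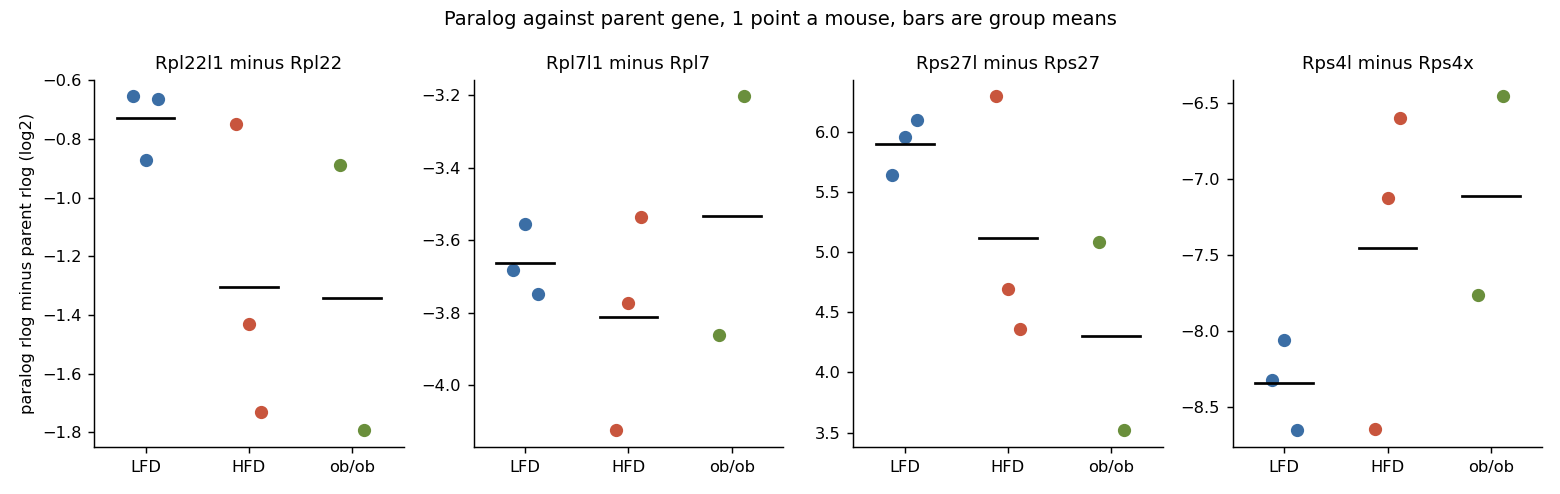
Rlog of the paralog minus rlog of its parent gene (log2) is drawn for 4 pairs, with 1 point for each mouse and bars for the group means. Rpl22l1 minus Rpl22 is -0.66 to -0.87 in the LFD mice and reaches -1.73 in HFD and -1.79 in ob/ob, and each axis has its own range.

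Members with longer and with shorter tracts at the start had medians close to each other. The 24 members with a tract of at least 8 bases, such as Rps6, Rpl28 and Rpl35, had median differences of -0.41 in HFD and -0.54 in ob/ob. The 36 members with a shorter one, such as Rpl41, had -0.42 and -0.47.

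Other genes of translation were set beside the members. Of 18 translation factors and related mRNAs known for a TOP tract, 14 had a lower mean in HFD and 14 in ob/ob (medians -0.30 and -0.39), and 1 in HFD and 0 in ob/ob were lower at an unadjusted p under 0.05, where 8.35% and 7.18% of all genes were. Eef2, the translocase of elongation, differed by -0.74 and -0.75 and Eef1a1, which delivers aminoacyl-tRNA, by -0.54 and -0.40, while the poly(A) binding protein Pabpc1 differed by 0.49 and 0.16. Among the ribosome components under other symbols, Rack1 differed by -0.60 and -0.60 and Fau by -0.08 and -0.30. The member of the list that passed in HFD was Eef1d, an exchange factor of elongation (-0.47 ± 0.20), named after its values were seen.

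Genes that build ribosomes had medians nearer to 0. Of 27 genes of ribosome assembly and rRNA synthesis, 5 in HFD and 1 in ob/ob were lower at an unadjusted p under 0.05 and 0 were higher, beside 8.35% and 7.18% of all genes that were lower, with medians of -0.19 and -0.16. Polr1b, a core subunit of RNA polymerase I, was lower by this measure in HFD (-0.55 ± 0.18, adjusted p = 0.194 in limma) and differed by -0.42 ± 0.20 in ob/ob. The other genes past that threshold, named after their values were seen, were Gnl3, Ltv1, Rrs1 and Bop1 in HFD (-0.37 to -0.48) and Bop1 in ob/ob (-0.40).

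Of 17 genes of mTORC1 and Myc control, 4 were lower in each comparison at the unadjusted threshold and 0 higher, where 8.35% of all genes were lower and 11.5% higher in HFD, and 7.18% and 11.6% in ob/ob. In both they included Eif4ebp1, the repressor of cap-dependent translation that mTORC1 inactivates, Larp1, which binds TOP tracts, and Rps6kb1, the kinase of Rps6. The fourth was Mtor in HFD (-0.39 ± 0.15) and Myc in ob/ob (-0.50 ± 0.18). Other than Eif4ebp1, these genes were named after their values were seen.

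Eif4ebp1 was 9.91, 10.05 and 10.37 in LFD, 9.85, 9.12 and 8.46 in HFD and 9.44 and 8.91 in ob/ob. Larp1 was 11.54, 11.13 and 11.22 in LFD, 11.03, 10.18 and 9.98 in HFD and 10.83 and 9.93 in ob/ob. Rps6kb1 was 10.28, 10.32 and 10.58 in LFD, 10.26, 9.23 and 9.14 in HFD and 9.83 and 9.44 in ob/ob. In each of the 3 genes all 5 obese mice lay below all 3 LFD mice, HFD replicate 1 by a small margin. The genes are set out because they passed in both comparisons of these same mice, so this separation adds no support. Of all genes, 12.3% did not overlap downward in HFD and 21.8% in ob/ob, and the share that did both was not counted. Rpl28 was the only member of the ribosomal proteins separated in this way.

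The ob/ob calls of these 3 genes rested on ob/ob replicate 2. Without it, their differences were -0.67, -0.47 and -0.56 and none was past the unadjusted threshold. With all mice, the differences from LFD were -0.97 ± 0.34 in HFD and -0.93 ± 0.38 in ob/ob for Eif4ebp1, -0.90 ± 0.33 and -0.92 ± 0.36 for Larp1, and -0.85 ± 0.30 and -0.76 ± 0.33 for Rps6kb1. Their adjusted p-values in limma were 0.203 to 0.213 in HFD and 0.245 to 0.264 in ob/ob. With the acinar list as a covariate, the differences in HFD were -0.40, -0.37 and -0.39 and none of the 3 genes was past the unadjusted threshold. Deptor, an inhibitor of mTOR, differed by -1.05 ± 0.59 in HFD and -1.26 ± 0.66 in ob/ob and did not pass.

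The snoRNA host genes, whose introns carry small nucleolar RNAs and several of which have TOP tracts, had medians of 0.25 and 0.11 over 6 genes, and Snhg5 was higher in HFD at the unadjusted threshold (0.98 ± 0.36) and differed by 0.85 ± 0.40 in ob/ob.

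Mitochondrial ribosomal proteins, which serve a separate ribosome, had medians of -0.19 in HFD and -0.22 in ob/ob over 78 genes. At the unadjusted threshold, 10 were lower and 1 higher in HFD, and 5 lower and 1 higher in ob/ob, beside 8.35% lower and 11.5% higher of all genes in HFD, and 7.18% and 11.6% in ob/ob. The ob/ob count of lower genes was thus near that of all genes. The gene that was higher in ob/ob was Mrpl33 (0.55 ± 0.23), and the 5 that were lower, Mrpl28, Mrpl37, Mrpl53, Mrps2 and Mrps12, differed by -0.46 to -0.83, all named after their values were seen. Mrps34 differed by -0.71 ± 0.25 in HFD and Mrps25 by 0.73 ± 0.24, both past that threshold. Their spread between mice was smaller than that of the cytosolic members, with a median residual SD of 0.25 against 0.48. In HFD replicate 3 the median difference from the LFD mean was -0.42 for mitochondrial and -1.03 for cytosolic ribosomal proteins.

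**Figure D5:**
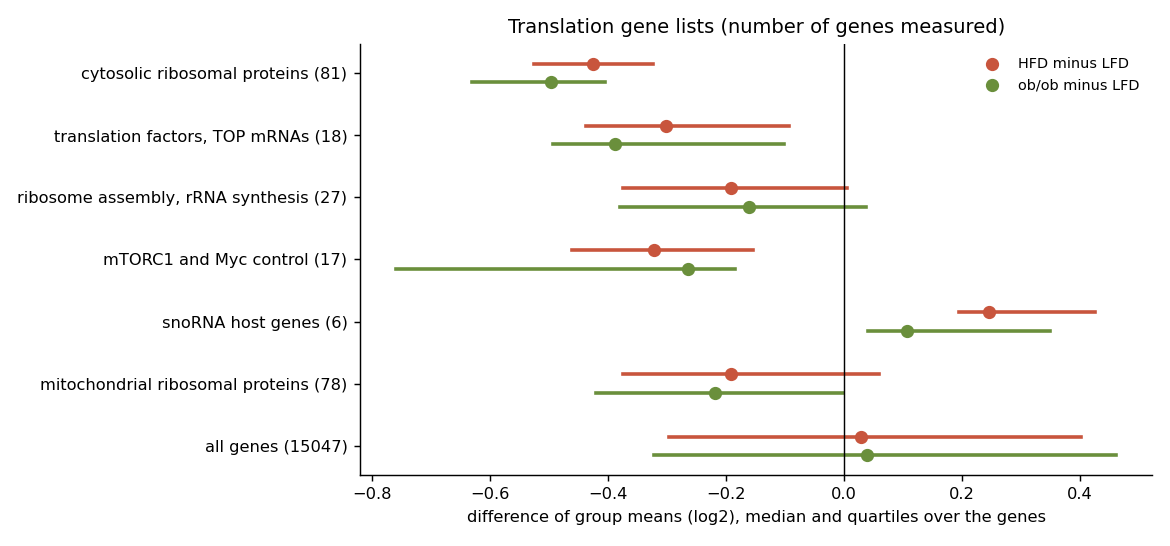
Points are the median and lines the quartiles, over the genes of a list, of the difference of group means from LFD (log2) in HFD (red) and ob/ob (green), with the number of genes measured in brackets. On this rlog scale, the 81 cytosolic ribosomal protein genes have the lowest medians of the lists drawn. Lists not drawn include the acinar list (-1.99 and -2.11), the ribosome components under other symbols (-0.54 and -0.60) and the islet list (-0.46 and 1.19). The medians of the cytosolic members, -0.42 and -0.50, turn to 0.91 and 0.99 when scaled to the summed value, and snoRNA host genes lie above 0.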

How the data were processed

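RNA-Seq was made from pancreas of 8 male mice, and the labels gave the groups. The authors quantified transcripts of Gencode M18 (GRCm38.p6) with Salmon 0.11.3, summarized them per gene with tximport, applied the rlog function of DESeq2 1.22.2 and deposited these log2 values. Low genes had been left out by a filter not given in the sources used here. Counts were not used, so depth is unknown. Groups were compared with limma 3.58.1 in R 4.3.3 (all 8 mice, a mean for each group, trended empirical Bayes, Benjamini-Hochberg over all 15047 genes). Since 0 genes passed an adjusted p of 0.05, members were counted at an unadjusted p of 0.05. In limma, each p-value sets a difference of group means against the spread between mice within groups, pooled over the groups and moderated over all genes. SciPy 1.17.1 gave the exact tests.

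Transcripts, coding sequences and gene coordinates came from Gencode M21, also on GRCm38, copies were found with BLAST 2.17.0, and promoter sequences came from RefSeq (GRCm38.p6).

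Members and lists were chosen with earlier results of these data known. Genes named are the members with the largest differences each way (4 for each obese group against LFD, 2 for ob/ob against HFD), members of known roles, paralogs with their parents, and at most 2 each way of each list. Rpl28, Rpl12 and Rpl27 were named after their values were seen. The alternatives were the variance without a trend, only the groups compared, a mean rlog of at least 5, median centring, quantile normalization, a replicate block, the acinar mean as a covariate and leaving out each mouse. Scaling to the summed value, the sum with Rps27rt and the paralog test were added after the data were seen. The list of mitochondrially encoded transcripts matched 0 genes of the analysed table. The islet, duct, endothelial and adipocyte lists had medians of -0.46, 0.90, 0.30 and 0.06 in HFD and 1.19, -0.08, 0.09 and 0.09 in ob/ob, each minus LFD. The values of some single genes are not reported here, though they are counted among the members and lists.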

Additional observations from a re-analysis of the deposited data

How the results depend on the processing

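Of 662 recomputed differences of 22 named members, 617 kept their direction. The cause of the changes was not tested. Without the trend, the counts at the unadjusted threshold were 0 lower in HFD, 0 lower and 2 higher in ob/ob, and 1 higher in ob/ob against HFD. With only the groups compared, 8 members were lower in ob/ob, and 1 gene in HFD and 38 in ob/ob had an adjusted p under 0.05. Median centring gave 2 lower members in HFD and -0.018 for Rps27. Quantile normalization gave medians of -0.18 and -0.22, 0 lower and 0 higher members in ob/ob, with 0.043 for Rpl22, 0.047 for Rpl7 and -0.18 for Rps27 in HFD, and 0.12 for Rplp0 and 0.0021 for Rps4x in ob/ob. Scaling to the summed value of all genes, chosen after seeing the data, gave 0 lower members in HFD and in ob/ob, medians of 0.91, 0.99 and, for ob/ob against HFD, 0.065, and 17 genes in HFD and 1 in ob/ob with an adjusted p under 0.05. Rps27 summed with Rps27rt gave -0.14 and -0.31.

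Same-numbered mice did not all deviate together (correlations of their deviations over genes from -0.281 to 0.592). HFD and ob/ob mice with the same number had 0.592 for replicates 1 and 0.303 for replicates 2. The labels do not say what the numbers stand for. With so few mice, these correlations cannot show whether the numbers pair them. With the replicate block, 0 members were lower in HFD and 1 in ob/ob against HFD.

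With the acinar list as a covariate, 0 members were lower in HFD, 0 lower and 0 higher in ob/ob, the medians were 0.16 and 0.12, and 1 gene in ob/ob against LFD and 1 in ob/ob against HFD had an adjusted p under 0.05. Named members whose sign turned in HFD were Rpl11 (0.15), Rpl22 (0.31), Rpl22l1 (0.25), Rpl32 (0.17), Rpl35 (0.11), Rpl41 (0.036), Rpl5 (0.15), Rpl7 (0.27), Rplp1 (0.20), Rps12 (0.086), Rps19 (0.095), Rps27 (-0.025), Rps27a (0.16), Rps27l (0.18), Rps4x (0.24), Rps6 (0.14) and Rpsa (0.17). In ob/ob they were Rpl11 (0.17), Rpl22 (0.16), Rpl22l1 (0.11), Rpl32 (0.034), Rpl35 (0.10), Rpl5 (0.29), Rpl7 (0.16), Rps27a (0.17), Rps27l (0.0017), Rps4x (0.23), Rps6 (0.16) and Rpsa (0.14).

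Leaving out each mouse in turn, the lower members numbered 0 to 52 in HFD, 0 to 6 in ob/ob and 0 to 1 in ob/ob against HFD, and the higher ones 0 to 1 in HFD and 0 to 1 in ob/ob. The 52 came without HFD replicate 1 and the 6 without ob/ob replicate 1. Genes with an adjusted p under 0.05 numbered 0 to 2812 in HFD, 0 to 89 in ob/ob and 0 to 1 in ob/ob against HFD, with 2812 and 89 both without HFD replicate 1. The median kept its sign in HFD (-0.72 to -0.11) and in ob/ob (-0.84 to -0.20) but moved by more than 1.5 times, without HFD replicate 1 or 3 and ob/ob replicate 1 or 2. The median for ob/ob against HFD ran from -0.42 to 0.25. Ranges that crossed 0 were -0.35 to 0.16 for Rpl22, -0.62 to 0.0032 for Rpl7, -0.26 to 0.049 for Rps12 and -0.086 to 0.15 for Rps27 in HFD, -0.55 to 0.00024 for Rpl5 in ob/ob, and -0.16 to 0.068 for Rpl7l1 minus Rpl7. Depth is unknown, so counting error could not be set beside the spread of 2 or 3 mice a group.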
